A study of Macaca fascicularis with 16 samples.

Results

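The 35 genes described here carry out DNA replication (14 genes) and mitosis (21 genes). They were chosen by gene symbol, and all 35 were found among the 23602 gene symbols of the deposited count tables. Their RNA was followed in peripheral blood mononuclear cells (PBMC, the lymphocytes and monocytes that a density gradient separates from blood) of 4 Mauritian-origin cynomolgus macaques, LG04, LG11, LG12 and LG15. Each animal was bled at 4 times, before NKTT320 (pre-treatment) and 30 minutes, 2 hours and 1 day after it, which gives 16 libraries and 4 animals at each time. NKTT320 is a monoclonal antibody against the invariant T-cell receptor of natural killer T (iNKT) cells, a small population of lymphocytes that it binds and activates. Every animal received NKTT320, no untreated animal is analysed here, and the dose, sex and age are not given in the labels, so an effect of the antibody and an effect of time or of repeated bleeding cannot be told apart.

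A cell that leaves quiescence first loads the MCM helicase onto replication origins with the help of CDT1, then starts synthesis with CDC45, the GINS complex and the sliding clamp PCNA, while RRM1, RRM2, TYMS and TK1 supply nucleotides. Genes of mitosis are transcribed later in the cycle and encode the cyclin B kinase CDK1, motors, kinetochore proteins and the spindle checkpoint. Most mononuclear cells in blood are out of cycle, and blood cells known to cycle include activated lymphocytes, plasmablasts, haematopoietic progenitors and nucleated red-cell precursors.

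Levels between genes can be compared only per length, and for this the authors' deposited FPKM values, which allow for gene length and depth, were used. PCNA and RRM1 were the highest, with 25.9 ± 8.63 and 21.7 ± 6.95 FPKM (mean ± SD, n = 16 libraries). The helicase subunits MCM6 and MCM7 followed with 9.84 ± 3.51 and 9.59 ± 2.65 FPKM, and CENPF, a kinetochore protein, was the highest mitosis gene with 7.06 ± 2.29 FPKM. MKI67, the proliferation antigen Ki-67, averaged 3.23 ± 0.696 FPKM and TOP2A, the topoisomerase that untangles sister chromosomes, 3.57 ± 0.976 FPKM. The remaining levels below are CPM, which are counts scaled to a common library size with TMM factors (a normalisation on the bulk of genes), and are compared between libraries of the same gene only. The order of animals for a gene can differ between CPM and FPKM because the scaling between libraries differs. At 2 hours, for example, the TMM factor was 0.460 for LG04 and 1.26 for LG12.

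The filter on low counts kept 26 of the 35 genes, 11 of replication and 15 of mitosis, among 11545 genes tested. The 9 genes left out were CDT1, GINS2 and TK1 of replication and BIRC5, CCNB2, KIF20A, AURKB, CDC20 and UBE2C of mitosis. Of these, UBE2C, which marks targets of the anaphase-promoting complex, had 33 counts over the 16 libraries and BIRC5, the survivin subunit of the chromosomal passenger complex, had 133. ZWINT, a kinetochore protein, passed with 114 counts over the 16 libraries. The highest level of any of the 9 in a library was 4.12 CPM, for BIRC5 in LG04 at 30 minutes. UBE2C was at 0 in 4 libraries, TK1 in 3, CDC20 in 2, and GINS2, KIF20A and AURKB in 1 each. At these depths 3 counts correspond to 0.35 to 2.12 CPM of the library total.

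The libraries held 1417467 to 8582852 counts. Of the 16 libraries, 13 lay nearest to another library of their own animal by the correlation of their deviations from the time means. The other 3 lay nearest to a library of the other animal of the pair LG04 and LG15: the library labelled LG04 at 1 day and that of LG15 pre-treatment to each other, and that of LG15 at 1 day to LG04 at 2 hours. Of the genes at least 4-fold apart between LG04 and LG15 at each of the other 3 times, 6 were higher in LG15 and 41 in LG04. The library labelled LG04 at 1 day lay nearer to LG15 for 6 of the 6 and for 39 of the 41. The library labelled LG15 at 1 day lay nearer to LG04 for 1 of the 6 and for 16 of the 41, and nearer to LG15 for 5 and 25. SLC7A4, for example, had 76.1, 125.5 and 139.3 CPM of the library total in LG04 at the first 3 times and 0 in the library labelled LG04 at 1 day. The label LG04 at 1 day is thus in doubt. That of LG15 at 1 day is in doubt by its nearest library, although most of these genes lay nearer to its own label. Both libraries lay nearer to LG15 for most of these genes. Whether the 1 day libraries come from 4 different animals therefore cannot be told, which limits every count of 4 animals at 1 day. Results at 1 day are also given without the library labelled LG04, without that labelled LG15 and without both. These fits keep the earlier libraries of these animals and leave 3, 3 and 2 animals at 1 day. Summed markers of T cells, B cells, NK cells and monocytes were detected in every library. Erythroid markers were detected too, and globin genes made up between 0.0253% (LG12 at 30 minutes) and 48.7% (LG04 at 2 hours) of the counts. In these unsorted cells a change in the number of cycling cells and a change in RNA per cell cannot be told apart.

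The replication genes with the most counts come first. In the order LG04, LG11, LG12 and LG15, used for every set of 4 values below, RRM1, the large subunit of ribonucleotide reductase, had 63.5, 69.5, 68.2 and 78.99 CPM pre-treatment, 58.6, 63.6, 73.5 and 79.04 CPM at 30 minutes, 52.7, 73.1, 68.2 and 51.96 CPM at 2 hours and 51.3, 63.7, 63.3 and 49.4 CPM at 1 day. RRM1 was lower at 1 day than pre-treatment in 4 of 4 animals, and LG15 showed the widest swing. MCM6 had 36.4, 33.7, 44.1 and 39.03 CPM pre-treatment, 29.8, 31.7, 44.6 and 32.9 CPM at 30 minutes, 30.1, 34.8, 42.0 and 36.5 CPM at 2 hours and 34.2, 31.5, 49.9 and 27.7 CPM at 1 day. LG12 held the highest MCM6 level at every time, and no time stood apart. PCNA had 38.4, 51.1, 21.96 and 28.7 CPM pre-treatment, 31.3, 33.5, 19.98 and 32.9 CPM at 30 minutes, 42.2, 39.4, 18.6 and 21.98 CPM at 2 hours and 33.5, 42.2, 21.5 and 30.03 CPM at 1 day. In CPM LG12 was the lowest of the 4 animals for PCNA at every time. In FPKM LG04 was below LG12 at 30 minutes (16.6 against 20.2) and 2 hours (17.6 against 18.5), and LG15 at 1 day (18.4 against 21.4).

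MCM7 had 35.4, 26.1, 25.1 and 20.2 CPM pre-treatment, 34.8, 19.4, 29.3 and 24.6 CPM at 30 minutes, 33.1, 18.9, 30.96 and 34.97 CPM at 2 hours and 23.0, 19.9, 27.3 and 22.1 CPM at 1 day, with no common direction over the animals. MCM3 had 19.8, 16.7, 23.5 and 19.6 CPM pre-treatment, 25.1, 14.7, 19.1 and 19.9 CPM at 30 minutes, 21.7, 17.8, 22.1 and 22.5 CPM at 2 hours and 19.1, 14.95, 22.1 and 13.8 CPM at 1 day. The 1 day level of MCM3 lay below the pre-treatment level in 4 of 4 animals, by a log2 change of -0.19 (95% interval -0.54 to 0.15). MCM4 had 24.1, 15.4, 20.2 and 24.4 CPM pre-treatment, 27.5, 19.6, 18.3 and 16.8 CPM at 30 minutes, 27.7, 13.4, 15.6 and 15.99 CPM at 2 hours and 11.8, 12.2, 12.8 and 16.6 CPM at 1 day. MCM4 was lower at 1 day than pre-treatment in 4 of 4 animals, although the lowest pre-treatment library, LG11, lay below the highest 1 day library, LG15.

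Other nucleotide enzymes had fewer counts. RRM2, the small and cell-cycle-limited subunit of ribonucleotide reductase, had 14.9, 5.52, 1.94 and 5.74 CPM pre-treatment, 14.98, 6.92, 4.25 and 6.15 CPM at 30 minutes, 11.8, 8.68, 2.17 and 5.995 CPM at 2 hours and 9.199, 6.94, 5.22 and 4.74 CPM at 1 day. In CPM LG04 was the highest at every time for RRM2. In FPKM LG11 was above LG04 at 2 hours (3.06 against 1.93) and at 1 day (2.38 against 2.25). TYMS, thymidylate synthase, had 5.03, 6.69, 1.75 and 4.81 CPM pre-treatment, 8.43, 6.47, 1.28 and 4.06 CPM at 30 minutes, 5.72, 4.702, 1.73 and 5.995 CPM at 2 hours and 5.91, 6.098, 2.902 and 8.298 CPM at 1 day. LG12 was the lowest at every time for TYMS. TYMS overlaps ENOSF1 in the macaque annotation, and since the strand setting of the counting is not given in the sources used here, reads of such neighbours cannot be told apart.

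**Figure D1:**
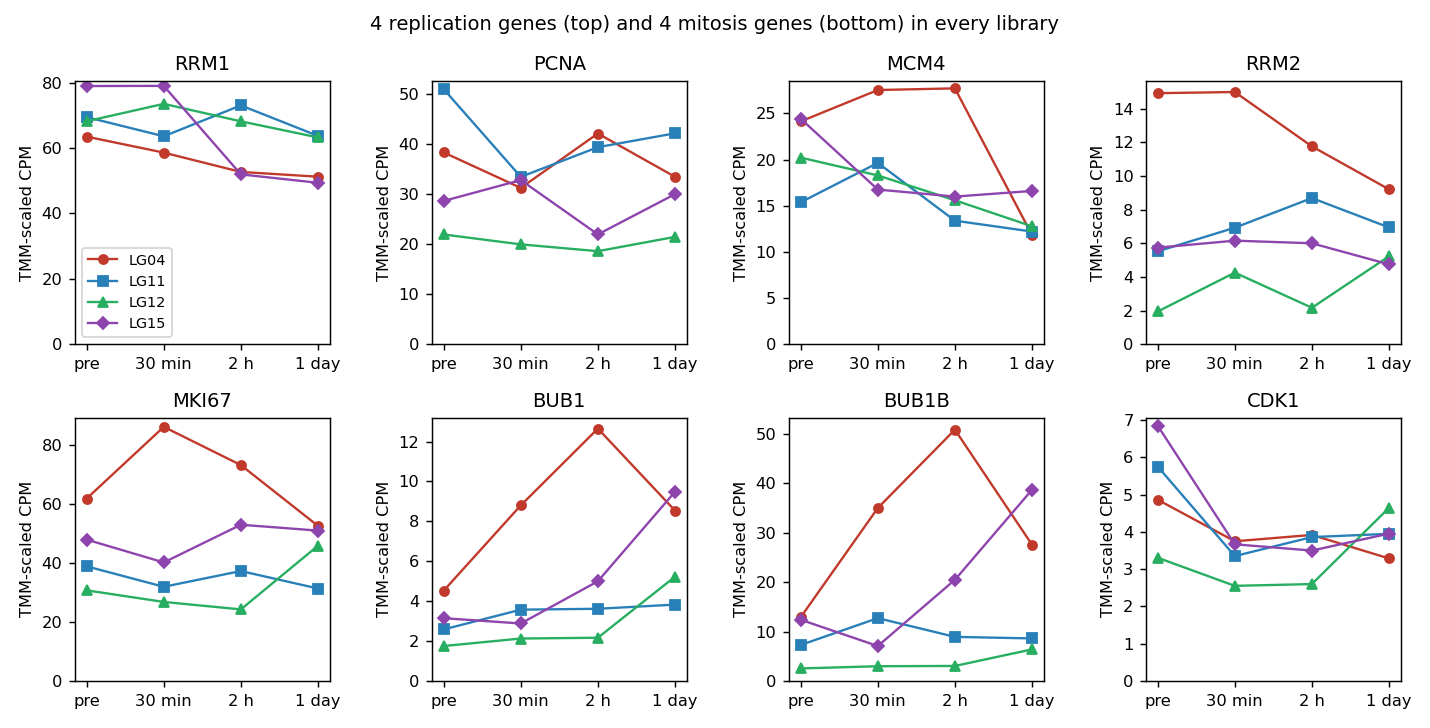
TMM-scaled CPM of RRM1, PCNA, MCM4 and RRM2 (replication, top) and MKI67, BUB1, BUB1B and CDK1 (mitosis, bottom) in each library, from pre-treatment to 1 day, with 1 line per animal. BUB1 and BUB1B lie higher at 1 day than pre-treatment in all 4 animals, and MCM4 lies lower.

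Among the mitosis genes, CENPF had 62.3, 60.7, 78.7 and 96.6 CPM pre-treatment, 64.2, 80.8, 82.9 and 76.03 CPM at 30 minutes, 72.3, 70.9, 88.5 and 73.9 CPM at 2 hours and 65.7, 48.1, 74.9 and 60.9 CPM at 1 day. LG15 was the highest for CENPF pre-treatment and LG12 at the 3 later times. MKI67 had 61.8, 38.9, 30.7 and 47.9 CPM pre-treatment, 86.2, 31.9, 26.8 and 40.2 CPM at 30 minutes, 73.2, 37.3, 24.3 and 52.96 CPM at 2 hours and 52.6, 31.3, 45.9 and 50.97 CPM at 1 day. In CPM LG04 was the highest animal for MKI67 at every time, and 2 of 4 animals were higher at 1 day than pre-treatment. In FPKM LG15 was the highest at 2 hours (4.07, against 2.89 in LG04) and LG12 at 1 day (4.21, against 3.22). CENPE, the motor that carries chromosomes to the spindle equator, had 35.5, 17.5, 16.7 and 25.3 CPM pre-treatment, 54.7, 26.1, 20.4 and 22.9 CPM at 30 minutes, 47.6, 23.2, 16.9 and 35.97 CPM at 2 hours and 36.8, 14.95, 16.8 and 35.6 CPM at 1 day. In CPM LG04 was again the highest for CENPE at every time, and the 4 times overlapped. In FPKM LG15 was above LG04 for CENPE at 2 hours (3.94 against 2.72).

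TOP2A had 29.5, 14.7, 12.4 and 25.3 CPM pre-treatment, 35.4, 18.1, 13.2 and 22.8 CPM at 30 minutes, 44.6, 20.01, 11.7 and 27.98 CPM at 2 hours and 32.2, 15.4, 9.29 and 35.96 CPM at 1 day. LG12 was the lowest animal for TOP2A at every time. CCNB1, cyclin B1, had 5.698, 5.28, 7.97 and 9.44 CPM pre-treatment, 10.1, 7.37, 7.23 and 5.496 CPM at 30 minutes, 12.7, 7.11, 8.44 and 2.998 CPM at 2 hours and 11.8, 5.26, 10.45 and 11.9 CPM at 1 day. CCNB1 had no common direction over the animals, and LG04 was the highest in CPM at 30 minutes and at 2 hours. In FPKM LG12 was the highest at both (4.64 and 5.07, against 3.43 and 3.24 in LG04). CDK1, the kinase that cyclin B1 activates, had 4.86, 5.75, 3.304 and 6.85 CPM pre-treatment, 3.75, 3.35, 2.55 and 3.66 CPM at 30 minutes, 3.92, 3.86, 2.598 and 3.497 CPM at 2 hours and 3.29, 3.95, 4.64 and 3.95 CPM at 1 day. CDK1 was lower than pre-treatment in 4 of 4 animals both at 30 minutes and at 2 hours.

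The spindle checkpoint kinase BUB1 and its partner BUB1B (BubR1), which holds back anaphase until chromosomes are attached, had the largest log2 changes of the tested members at 1 day. BUB1 had 4.53, 2.58, 1.75 and 3.15 CPM pre-treatment, 8.802, 3.57, 2.13 and 2.88 CPM at 30 minutes, 12.7, 3.62, 2.17 and 4.996 CPM at 2 hours and 8.54, 3.83, 5.22 and 9.48 CPM at 1 day. BUB1B had 12.9, 7.28, 2.53 and 12.4 CPM pre-treatment, 35.02, 12.7, 2.98 and 7.07 CPM at 30 minutes, 50.9, 8.92, 3.03 and 20.5 CPM at 2 hours and 27.6, 8.61, 6.39 and 38.7 CPM at 1 day. Both were higher at 2 hours and at 1 day than pre-treatment in 4 of 4 animals, and in both the values of the times overlapped.

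At 30 minutes against pre-treatment, 0 of the 26 tested members passed an adjusted p of 0.05 in edgeR's quasi-likelihood test, and of all 11545 genes 0% passed. At an unadjusted p under 0.05 stood 1 member (3.85%), against 2.53% of all genes. That member was CDK1, with 3.33 ± 0.545 CPM at 30 minutes and 5.19 ± 1.496 CPM pre-treatment (SD, n = 4 each), a log2 change of -0.62 ± 0.24 (SE) with an adjusted p of 1 by edgeR. CENPE (0.36 ± 0.20) and BUB1 (0.43 ± 0.33) followed among the mitosis genes, and PCNA (-0.21 ± 0.16), MCM6 (-0.15 ± 0.13) and RRM2 (0.29 ± 0.28) among the replication genes, as log2 changes with SE, all with an adjusted p of 1 by edgeR. RRM2 was higher in 4 of 4 animals and CDK1 lower in 4 of 4, 1 member each way, where 6.21% of all genes were higher in 4 of 4 and 4.42% lower. The 4 libraries of each time were separate for 0 members and for 0.797% of all genes. The median log2 change was -0.01 over the replication genes, 0.04 over the mitosis genes and 0.02 over all genes tested. With library size alone, 3 of the 15 mitosis genes lay above 0 and 12 below, against 9 and 6 with TMM factors, while the median of all genes was -0.16; relative to that median, 9 lay above and 6 below under both scalings. All 10 NK-cell markers were lower at 30 minutes, with a median log2 change of -0.79, and 0 of them passed by edgeR. Of the 10, 8 stood at an unadjusted p under 0.05 by edgeR, against 2.53% of all genes. DESeq2 called 1, against 0.17% of all genes. The part of the NK-cell markers in these values was not tested.

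At 2 hours against pre-treatment, 0 of the 26 members passed by edgeR's adjusted p, as did 0% of all genes. At an unadjusted p under 0.05 stood 2 members (7.69%), against 7.43% of all genes. BUB1 averaged 5.86 ± 4.67 CPM at 2 hours and 3.0 ± 1.17 CPM pre-treatment (SD, n = 4 each), a log2 change of 0.79 ± 0.32 (SE) with an adjusted p of 0.621 by edgeR. CDK1 averaged 3.47 ± 0.609 CPM at 2 hours and 5.19 ± 1.496 CPM pre-treatment, a log2 change of -0.55 ± 0.24 with an adjusted p of 0.646 by edgeR. BUB1B averaged 20.8 ± 21.3 CPM at 2 hours and 8.78 ± 4.88 CPM pre-treatment, where LG04 alone reached 50.9 CPM at 2 hours, a log2 change of 0.90 ± 0.43 with an adjusted p of 0.676 by edgeR. The replication genes with the smallest p were RRM1 (-0.19 ± 0.14), PCNA (-0.20 ± 0.16) and MCM4 (-0.23 ± 0.20), with adjusted p-values of 0.795, 0.821 and 0.828 by edgeR. Higher in 4 of 4 animals were 4 members, BUB1, BUB1B, CENPE and ZWINT, where 8.06% of all genes were. CDK1 was the 1 member lower in 4 of 4, where 6.52% of all genes were. The libraries were separate between the times for 0 members and for 1.77% of all genes.

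Of the 15 tested mitosis genes, 13 had a log2 change above 0 at 2 hours and 2 below, with a median of 0.27, where the median over all genes was 0.02. With library size alone, 5 were above 0 and 10 below, with a median of -0.067, while the median over all genes was itself -0.26. Relative to the median of all genes, the mitosis median was 0.25 with TMM factors and 0.20 with library size alone, and 12 of the 15 lay above it under both. Of the 11 replication genes 5 were above 0 and 6 below, with a median of -0.04, and with library size alone 0 were above and 11 below; relative to all genes the replication median was -0.06 and -0.07. All 11 monocyte markers were higher at 2 hours, with a median log2 change of 1.20, and all 11 T-cell markers lower, with a median of -0.40. In either list 0 passed by edgeR. At an unadjusted p under 0.05 by edgeR stood 6 and 5, against 7.43% of all genes. DESeq2 called 2 and 2, against 0.577% of all genes. The part of the monocyte and T-cell markers was not tested.

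At 1 day against pre-treatment, 0 of the 26 members passed by edgeR's adjusted p, where 26 of all genes (0.225%) did. At an unadjusted p under 0.05 stood 3 members (11.5%), against 13.6% of all genes. BUB1 averaged 6.77 ± 2.68 CPM at 1 day and 3.0 ± 1.17 CPM pre-treatment (SD, n = 4 each), a log2 change of 1.16 ± 0.33 (SE), which is 2.24-fold, with a 95% interval of 0.45 to 1.88 and an adjusted p of 0.131 by edgeR. BUB1B averaged 20.3 ± 15.5 CPM at 1 day and 8.78 ± 4.88 CPM pre-treatment, a log2 change of 1.12 ± 0.44 with a 95% interval of 0.17 to 2.07 and an adjusted p of 0.262 by edgeR. MCM4 averaged 13.4 ± 2.20 CPM at 1 day and 21.0 ± 4.23 CPM pre-treatment, a log2 change of -0.61 ± 0.21 with a 95% interval of -1.06 to -0.16 and an adjusted p of 0.192 by edgeR. RRM1 (-0.30 ± 0.14), MCM5 (-0.50 ± 0.37) and CENPF (-0.26 ± 0.15) came next in their groups, with adjusted p-values of 0.379, 0.655 and 0.528 by edgeR. Without the library labelled LG04 at 1 day, the log2 changes were 1.37 for BUB1, 1.35 for BUB1B and -0.45 for MCM4, with adjusted p-values of 0.151, 0.27 and 0.394 by edgeR. Without that labelled LG15 they were 0.89, 0.60 and -0.73 (adjusted p 0.359, 0.715 and 0.271 by edgeR), and without both 1.09, 0.75 and -0.53 (0.347, 0.694 and 0.467).

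Higher in 4 of 4 animals at 1 day were 3 members, BUB1, BUB1B and NUSAP1, a microtubule-binding spindle protein, where 9.83% of all genes were. The log2 change of NUSAP1 was 0.50 with all libraries and -0.07 without the library labelled LG15 at 1 day. Lower in 4 of 4 were RRM1, MCM3 and MCM4, 3 members, where 9.09% of all genes were. The libraries of the 2 times were separate for 0 members and for 2.94% of all genes. The best-known proliferation markers had intervals around 0: MKI67 a log2 change of 0.05 (95% interval -0.41 to 0.51), TOP2A 0.12 (-0.29 to 0.52) and PCNA -0.11 (-0.47 to 0.24). For MKI67 the upper bound was 1.425-fold.

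Of the 11 replication genes, 2 had a log2 change above 0 at 1 day and 9 below, with a median of -0.19, where the median over all genes was -0.000364. With the library labelled LG04 at 1 day left out, the median was -0.13, without that labelled LG15 -0.20 and without both -0.05. Of the 15 mitosis genes 12 were above 0 and 3 below, with a median of 0.12, but with library size alone 5 were above and 10 below, with a median of -0.10 while that of all genes was -0.21. Relative to the median of all genes, the mitosis median was 0.12 with TMM factors and 0.10 with library size alone, with 12 of the 15 above it under both. Without the library labelled LG04 at 1 day 11 of 17 then tested were above 0, with a median of 0.17; the median was 0.06 without that labelled LG15 and 0.14 without both. All 10 megakaryocyte and platelet markers were higher at 1 day, with a median log2 change of 2.82, and 0 passed by edgeR. All 10 stood at an unadjusted p under 0.05 by edgeR, against 13.6% of all genes. DESeq2 called 6, against 3.07% of all genes. The part of the megakaryocyte and platelet markers was not tested.

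**Figure D2:**
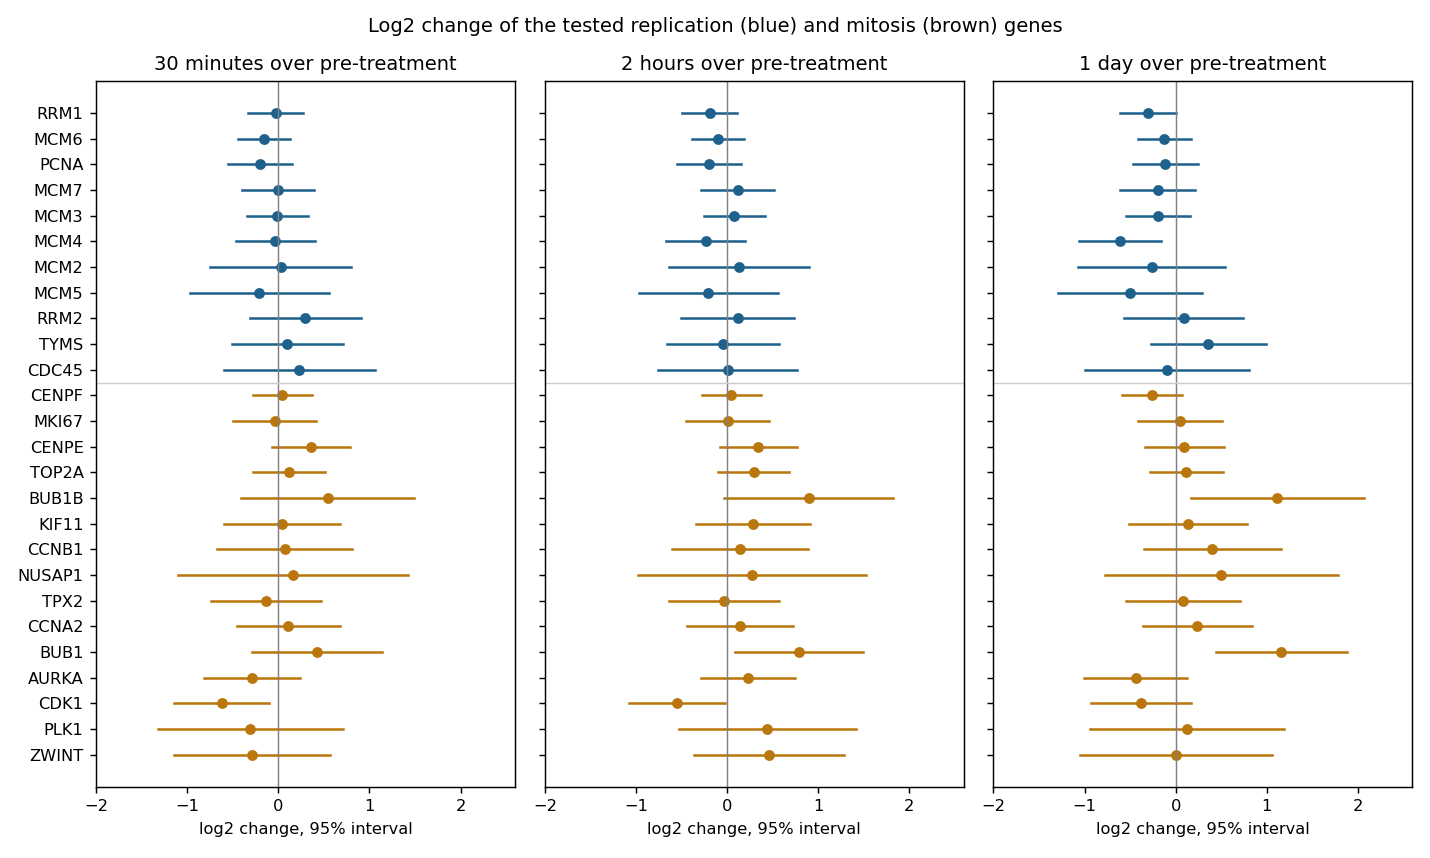
Log2 change (dot) and 95% interval (line) of the 26 tested genes at 30 minutes, 2 hours and 1 day over pre-treatment, from the edgeR fit with animal as a block, replication genes in blue above the line and mitosis genes in brown below it. The intervals of most genes span 0, and those of BUB1, BUB1B and MCM4 at 1 day do not, before adjustment for the 11545 genes tested.

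The later times were also set against each other. At 2 hours against 30 minutes, 0 members and 0% of all genes passed by edgeR's adjusted p, and at an unadjusted p under 0.05 stood 0 members, against 4.6% of all genes. AURKA, the kinase of the spindle poles, averaged 5.67 ± 0.798 CPM at 2 hours and 3.85 ± 0.637 CPM at 30 minutes (SD, n = 4 each), and its values were 6.63, 4.702, 5.85 and 5.496 CPM at 2 hours against 3.75, 4.69, 3.83 and 3.14 CPM at 30 minutes. The lowest 2 hour library and the highest 30 minute library, both of LG11, were nearly equal, so AURKA was the 1 member whose libraries did not overlap, where 0.719% of all genes did not. Its log2 change was 0.52 ± 0.25 with an adjusted p of 0.999 by edgeR. ZWINT (0.75 ± 0.41) and the mitotic kinase PLK1 (0.75 ± 0.47) followed with the same adjusted p by edgeR, and the replication genes with the smallest p were RRM1 (-0.16 ± 0.14), MCM4 (-0.20 ± 0.20) and MCM7 (0.12 ± 0.19), again at 0.999.

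At 1 day against 30 minutes, 0 members passed by edgeR's adjusted p, where 0.0433% of all genes did, and 2 members (7.69%) stood at an unadjusted p under 0.05, against 13.1% of all genes. MCM4 averaged 13.4 ± 2.20 CPM at 1 day and 20.6 ± 4.80 CPM at 30 minutes, a log2 change of -0.57 ± 0.21 with an adjusted p of 0.235 by edgeR. Its libraries of the 2 times were separate, the 1 such member, where 2.17% of all genes were. The highest 1 day library and the lowest 30 minute library, both labelled LG15, were nearly equal (16.6 and 16.75 CPM). With the library labelled LG04 at 1 day left out, the log2 change of MCM4 was -0.41, with an adjusted p of 0.516 by edgeR. Without that labelled LG15 it was -0.69 (0.313) and without both -0.49 (0.626). BUB1 had a log2 change of 0.74 ± 0.33 with an adjusted p of 0.37 by edgeR. RRM1 (-0.27 ± 0.14), MCM3 (-0.18 ± 0.16), CENPF (-0.30 ± 0.15) and CENPE (-0.26 ± 0.20) followed, with adjusted p-values of 0.442 to 0.764 by edgeR.

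At 1 day against 2 hours, 0 members passed by edgeR's adjusted p, where 0.104% of all genes did, and 1 member (3.85%) stood at an unadjusted p under 0.05, against 12.6% of all genes. AURKA averaged 3.49 ± 0.774 CPM at 1 day and 5.67 ± 0.798 CPM at 2 hours, a log2 change of -0.67 ± 0.27 with an adjusted p of 0.333 by edgeR. Its libraries of the 2 times were separate, the 1 such member, as were those of 2.04% of all genes. Without the library labelled LG04 at 1 day its log2 change was -0.68, with an adjusted p of 0.719 by edgeR, without that labelled LG15 -0.58 (0.557) and without both -0.57 (0.979). Pre-treatment AURKA, with 5.195, 3.52, 6.802 and 3.89 CPM, overlapped with both times. CENPF (-0.31 ± 0.15), CENPE (-0.25 ± 0.20), MCM4 (-0.37 ± 0.21), MCM3 (-0.27 ± 0.16) and MCM7 (-0.32 ± 0.19) followed, with adjusted p-values of 0.432 to 0.687 by edgeR.

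Over the 4 times together, 0 members passed by edgeR's adjusted p, where 0.104% of all genes did. BUB1 was the 1 member (3.85%) at an unadjusted p under 0.05, against 12.2% of all genes, with an adjusted p of 0.288 by edgeR. CDK1 and AURKA came next among the mitosis genes (0.497 and 0.532), and MCM4, RRM1 and MCM3 among the replication genes (0.409, 0.671 and 0.87), as adjusted p-values by edgeR. DESeq2, run on the same counts, likewise called 0 members in each of the 7 tests. It called 0.17% of all genes at 30 minutes against pre-treatment, 0.577% at 2 hours against pre-treatment and 3.07% at 1 day against pre-treatment. Its shares were 0.0744% at 2 hours against 30 minutes, 2.67% at 1 day against 30 minutes, 0.768% at 1 day against 2 hours and 3.42% over the 4 times together. The 95% intervals are not a limit of detection, since they are not adjusted for the 11545 genes tested. Those of BUB1, BUB1B and MCM4 at 1 day over pre-treatment left out 0, and none of these genes passed. Changes of that size, and smaller ones, could thus go uncalled with 4 animals at this depth.

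More of the variance lay between animals than between times. Of the variance in log2 CPM between the 16 libraries, the median share between animals was 51.3% over the 11 replication genes, 53.0% over the 15 mitosis genes and 46.4% over all genes tested. The median share between times was 6.18%, 10.04% and 12.2% for the same sets. TOP2A held 89.6% of its variance between animals and 2.38% between times, and MKI67 76.5% and 0.464%. The genes with the largest share between times were AURKA (49.97%), CDK1 (44.4%) and MCM4 (43.3%). Shares of variance are descriptions here, since each animal gave 4 libraries and each time 4.

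BUB1B had the widest spread between animals of the tested members. It averaged 31.6 ± 15.8 CPM in LG04, 9.38 ± 2.34 in LG11, 3.73 ± 1.79 in LG12 and 19.7 ± 13.9 in LG15 (SD over the 4 times). NUSAP1 averaged 13.6 CPM in LG04 and 3.13 CPM in LG12, and KIF11, the motor that keeps spindle poles apart, 19.6 ± 6.31 CPM and 6.38 ± 1.01 CPM in the same animals. MCM2, a helicase subunit, averaged 22.6 ± 10.3 CPM in LG04 and 5.85 ± 1.93 CPM in LG12. CENPF went the other way, with 66.1 ± 4.32 CPM in LG04 and 81.3 ± 5.86 CPM in LG12, as did RRM1 (56.5 ± 5.64 and 68.3 ± 4.20 CPM), MCM6, AURKA and CCNA2, the S and G2 cyclin A. LG04 was the highest animal for 11 of the 15 mitosis genes and LG12 the lowest for 9, and the median ratio of LG04 to LG12 was 1.80 over the mitosis genes, 1.36 over the replication genes and 0.987 over all genes tested. With globin genes left out of the library size they were 1.45, 1.11 and 0.806, and with the plain library size 1.035, 0.753 and 0.568, so the scaling moved all genes alike. Divided by the ratio of all genes, the mitosis ratio was 1.82 with TMM factors, 1.805 with globin genes left out and 1.82 with the plain library size, and the replication ratio 1.38, 1.38 and 1.33. With the plain library size LG04 was the highest for 3 of the 15 mitosis genes and for 566 of the 11545 genes tested. With the library labelled LG04 at 1 day left out, LG04 was the highest for 12 of the 15, with a median ratio to LG12 of 1.67.

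**Figure D3:**
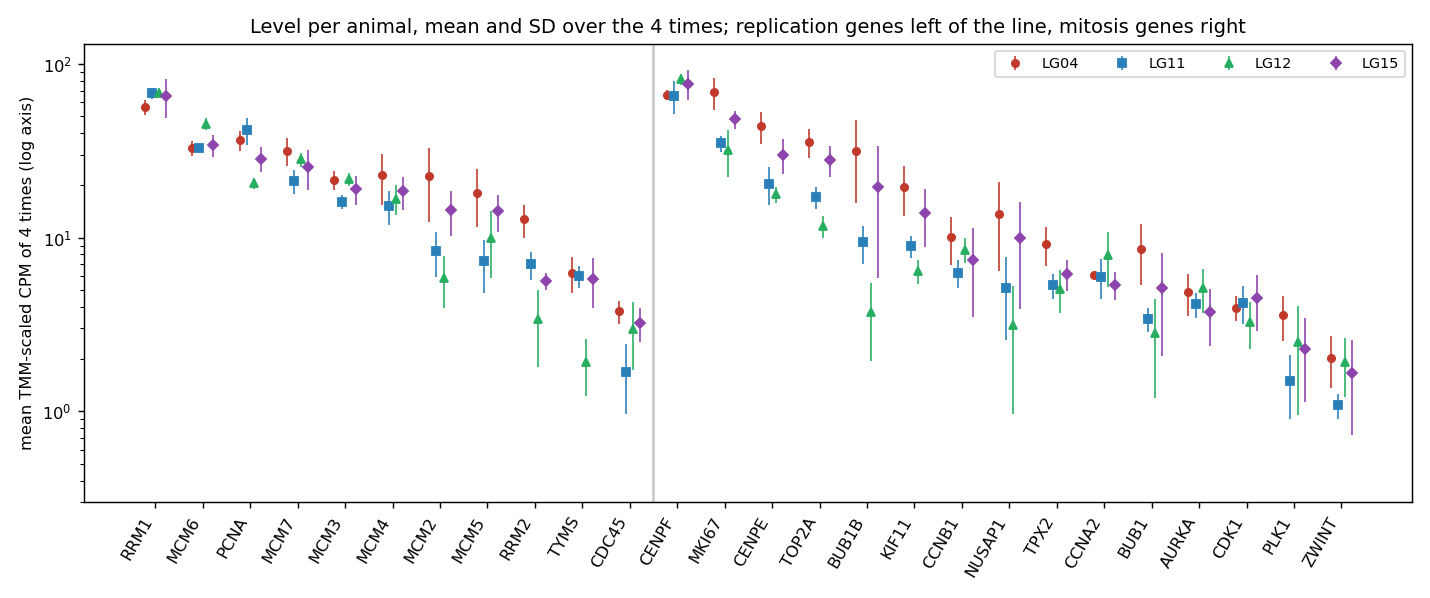
Mean TMM-scaled CPM of each tested gene in each animal (log axis), with bars of 1 SD over the 4 times, replication genes left of the grey line and mitosis genes right. BUB1B, with 31.6 CPM in LG04 and 3.73 CPM in LG12, has the widest spread between animals, and CENPF and RRM1 have narrow ones.

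Summed over the 14 replication genes, the level was 254.4 ± 24.1 CPM pre-treatment, 246.4 ± 34.9 at 30 minutes, 242.0 ± 27.5 at 2 hours and 215.6 ± 11.3 at 1 day (SD, n = 4 each). The sum at 1 day was lower than pre-treatment in LG04 (210.9 against 288.1 CPM), LG11 (214.5 against 249.5) and LG15 (205.5 against 249.2) and not in LG12 (231.6 against 230.7). The 1 day values of LG04 and LG15, also in the means, are from the libraries in doubt. Of the animals whose 1 day labels are not in doubt, LG11 was lower and LG12 was not. Summed over the 21 mitosis genes, the level was 230.5 ± 48.1 CPM pre-treatment, 251.2 ± 88.5 at 30 minutes, 272.3 ± 95.3 at 2 hours and 246.8 ± 67.2 at 1 day. On this TMM scale LG04 reached 404.5 CPM at 2 hours, while LG12 stayed between 181.9 and 221.1 CPM over the 4 times. Per plain library size the mitosis sum of LG04 was lowest at 2 hours, at 185.7 CPM, and highest pre-treatment, at 252.2 CPM.

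The ratio of the mitosis sum to the replication sum needs no scaling between libraries. It was 0.934, 0.742, 0.836 and 1.10 pre-treatment, 1.298, 1.05, 0.811 and 0.856 at 30 minutes, 1.44, 0.954, 0.866 and 1.16 at 2 hours and 1.399, 0.764, 0.955 and 1.496 at 1 day. At 2 hours and at 1 day it was higher than pre-treatment in 4 of 4 animals, with the smallest gap in LG11 at 1 day (0.764 against 0.742), and the 1 day values of LG04 and LG15 are from the libraries in doubt. Globin genes made up 20.3, 38.2, 48.7 and 13.6% of the counts of LG04 over the 4 times, 4.68, 10.4, 4.81 and 3.65% in LG11, 6.10, 3.36, 10.6 and 20.8% in LG15, and 0.0333, 0.0253, 0.0256 and 0.173% in LG12. In 4 of 4 animals the ratio was highest at the time with the highest globin share, a pattern seen after the values were known, namely 2 hours in LG04, 30 minutes in LG11 and 1 day in LG12 and LG15. The TMM-scaled mitosis sum peaked at that time in 4 of 4 animals as well. The same sum per plain library size or per library size without globin did so in 2 of 4, LG11 and LG12. The TMM-scaled replication sum did so in 1 of 4. In LG15 the ratio and the globin share had the same order over all 4 times. In LG04 and LG11 they had the same order over pre-treatment, 30 minutes and 2 hours. At 1 day against pre-treatment the ratio was higher and the globin share lower in LG04 and LG11, as at 2 hours in LG12. A link between the ratio and the globin share was not tested.

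The 13 erythroid markers summed to 117300 to 434500 CPM of the library total in libraries labelled LG04, 302.4 to 1572 in those of LG12, 32150 to 90150 in those of LG11 and 29480 to 184000 in those of LG15. In LG12 the erythroid factor GATA1 was at 0 at every time, and KLF1 at 2 hours and 1 day. The 6 progenitor markers summed to 46.6 to 79.1 CPM of the library total in LG04, 3.06 to 7.06 in LG12, 4.71 to 12.9 in LG11 and 47.5 to 136.5 in LG15. CD34 among them was at 0 in every 1 day library, and in LG11 and LG12 also pre-treatment and at 30 minutes. The progenitor markers did not move together, since of 4 tested at 1 day over pre-treatment 1 was higher and 3 lower. Plasma-cell markers, on the TMM scale of the mitosis sums, averaged 382.6 ± 79.4 CPM in LG04, 381.7 ± 43.3 in LG12, 355.9 ± 38.8 in LG11 and 376.6 ± 52.8 in LG15 (SD over the 4 times). With the erythroid score as a covariate, an alternative added after seeing the data, the log2 change at 1 day over pre-treatment was 0.95 for BUB1, 0.82 for BUB1B and -0.72 for MCM4, with adjusted p-values of 0.124, 0.164 and 0.119 by edgeR. With that covariate the median log2 change of the mitosis genes was -0.12 at 30 minutes, 0.12 at 2 hours and 0.03 at 1 day over pre-treatment, so at 30 minutes its sign turned. The part of progenitor and plasma cells was not tested.

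**Figure D4:**
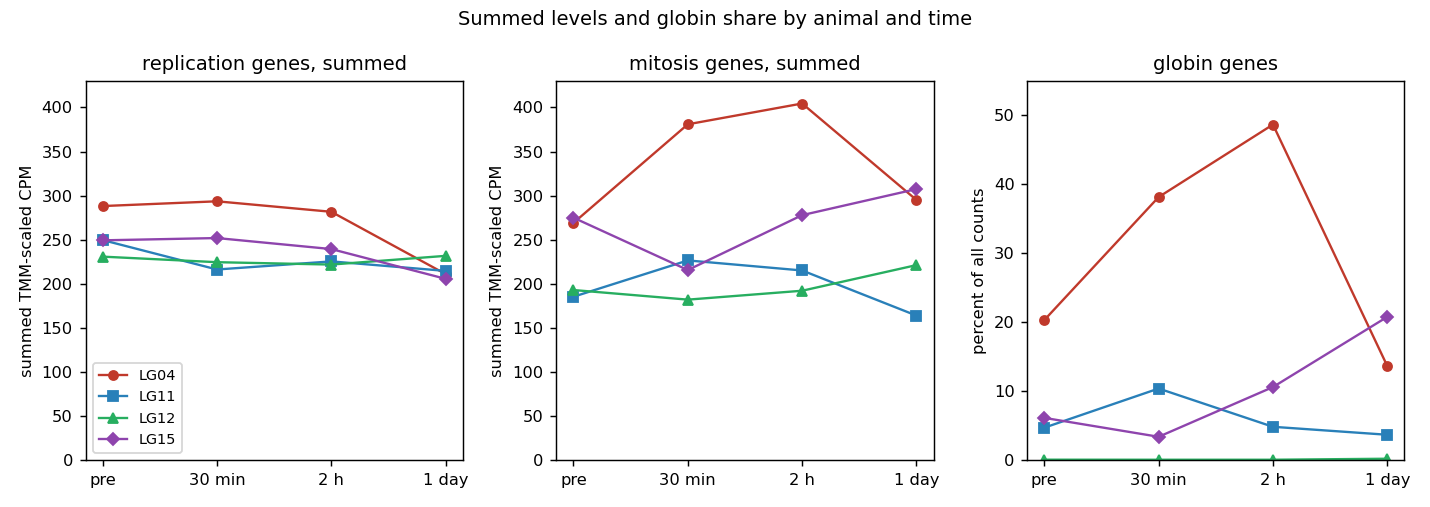
Summed TMM-scaled CPM of the 14 replication genes (left) and the 21 mitosis genes (middle), and the percent of all counts from globin genes (right), by animal from pre-treatment to 1 day. On the TMM scale the mitosis sum of LG04 peaks at 2 hours, at 404.5 CPM, as does its globin share, at 48.7%. Per plain library size that LG04 sum is lowest at 2 hours, at 185.7 CPM. LG12 stays between 181.9 and 221.1 CPM on the TMM scale, with at most 0.173% globin. The 1 day points of LG04 and LG15 are the libraries whose labels are in doubt.

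Other genes of the same pathways were read from 3 lists. Of 34 tested among 36 other replication genes, 0 passed by edgeR in any comparison, where at most 0.225% of all genes did. At 1 day 12 were higher and 22 lower than pre-treatment, with a median log2 change of -0.10. Of all genes 50.0% were higher and 50.0% lower. At an unadjusted p under 0.05 by edgeR stood 8 of the 34, against 13.6% of all genes. GINS1, a subunit of the replicative helicase, averaged 12.7 ± 5.46 CPM at 1 day and 6.6 ± 2.25 CPM pre-treatment (SD, n = 4 each) and was higher in 4 of 4 animals, a log2 change of 0.88 ± 0.22 with an adjusted p of 0.0981 by edgeR. RFC3, a subunit of the clamp loader, averaged 14.0 ± 1.02 CPM at 1 day and 22.6 ± 3.45 CPM pre-treatment and was lower in 4 of 4, by a log2 change of -0.69 ± 0.20 with an adjusted p of 0.135 by edgeR. POLA2, a subunit of DNA polymerase alpha, averaged 8.997 ± 2.29 CPM at 1 day and 13.2 ± 2.16 CPM pre-treatment, likewise lower in 4 of 4, a log2 change of -0.52 ± 0.19 with an adjusted p of 0.212 by edgeR. MCM4, RFC3 and POLA2 were lower at 1 day and GINS1 higher. DESeq2 called 2 genes of the list, both at 1 day over pre-treatment: GINS1 (adjusted p 0.0351) and POLE2, a subunit of DNA polymerase epsilon (log2 change 2.13, adjusted p 0.0196), the second named after its value was seen. In that comparison DESeq2 called 3.07% of all genes. Without the library labelled LG04 at 1 day the log2 changes were 0.91 for GINS1, -0.76 for RFC3 and -0.41 for POLA2, and without both 1 day libraries in doubt 0.76, -0.74 and -0.30.

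Of 34 tested among 46 other mitosis genes, 0 passed by edgeR in any comparison. At 1 day 21 were higher and 13 lower than pre-treatment, with a median log2 change of 0.22, where 50.0% of all genes were higher. At an unadjusted p under 0.05 by edgeR stood 7 of the 34, against 13.6% of all genes. MELK, a kinase of proliferating cells, averaged 4.42 ± 3.91 CPM at 1 day and 0.808 ± 0.517 CPM pre-treatment, a log2 change of 2.24 ± 0.51 with an adjusted p of 0.0895 by edgeR. Its CPM was higher in 4 of 4 animals, but in LG12 both levels stood for 1 count, under the level of 3 counts. In LG12 only the library size thus differed. Its 1 day values were 7.23, 1.55, 0.580 and 8.30 CPM against 1.34, 0.587, 0.194 and 1.11 CPM pre-treatment, so LG04 and LG15 carried most of the difference in CPM. NCAPG, a condensin subunit, averaged 14.5 ± 8.15 CPM at 1 day and 6.80 ± 3.99 CPM pre-treatment, a log2 change of 1.02 ± 0.36 with an adjusted p of 0.212 by edgeR. NDC80, the kinetochore protein that grips microtubules, averaged 9.21 ± 6.34 CPM at 1 day and 4.33 ± 1.15 CPM pre-treatment, a log2 change of 0.90 ± 0.30 with an adjusted p of 0.184 by edgeR, and was higher in 3 of 4 animals. With the library labelled LG04 at 1 day left out, the log2 changes were 2.32 for MELK, 1.07 for NCAPG and 0.69 for NDC80, with adjusted p-values of 0.151, 0.303 and 0.415 by edgeR, and without both libraries in doubt 1.60, 0.85 and 0.13. DESeq2 called 1 gene of the list, MELK, at 1 day over pre-treatment (log2 change 2.29, adjusted p 0.0201) and over the 4 times together (adjusted p 0.0362). Of all genes it called 3.07% and 3.42% in these 2 tests. MELK had 6.93 and 6.50 CPM in LG04 and LG15 at 2 hours. Outside the 2 hour and 1 day libraries of these animals it had at most 3.56 CPM. It thus passed the filter on low counts through the libraries where it was high, which include both in doubt.

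Of 31 tested among 35 cell-cycle regulators (cyclins of G1, CDK inhibitors, E2F and related factors), 0 passed by edgeR in any comparison. At 1 day 15 were higher and 16 lower than pre-treatment, where 50.0% of all genes were higher. At an unadjusted p under 0.05 by edgeR stood 6 of the 31, against 13.6% of all genes. CDC25B, a phosphatase that activates cyclin-dependent kinases, averaged 111.7 ± 39.8 CPM at 2 hours and 169.8 ± 34.2 CPM pre-treatment, lower in 4 of 4 animals, a log2 change of -0.67 ± 0.18 with an adjusted p of 0.317 by edgeR. At 1 day it averaged 174.5 ± 61.2 CPM. CDKN2D, the inhibitor p19-INK4d, averaged 83.4 ± 66.4 CPM at 1 day and 28.1 ± 13.2 CPM pre-treatment, with 140.6, 23.9, 27.9 and 141.1 CPM at 1 day, a log2 change of 1.26 ± 0.34 with an adjusted p of 0.117 by edgeR. CCND1, cyclin D1, had 92.7, 2.27, 1.74 and 76.3 CPM at 1 day against 5.20, 3.99, 1.17 and 24.4 CPM pre-treatment, a log2 change of 1.89 ± 0.71 with an adjusted p of 0.238 by edgeR. The libraries labelled LG04 and LG15 at 1 day were the high ones for MELK, CDKN2D and CCND1 alike. Without that of LG04 the log2 change was 1.16 for CDKN2D and 1.01 for CCND1, and without both 0.66 and -0.62, so the direction of CCND1 turned. DESeq2 called CDKN2D at 1 day over pre-treatment (adjusted p 0.0192) and over 30 minutes (0.0385), and CDKN2D (0.0314) and CDC25B (0.0179) over the 4 times together. Of all genes it called 3.07%, 2.67% and 3.42% in the same order.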

How the data were processed

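Raw gene counts were made by the authors with HTSeq, per the submitters' processing notes, and deposited per animal, with 24369 entries that were summed to 23602 gene symbols; FPKM values were deposited by the authors too. The submitters' processing notes also name STAR, Trimmomatic, FastQC, edgeR and DESeq, with no versions, and the human builds GRCh37 and hg19; what each was used for is not given in the sources used here, and reads of macaque RNA set against human sequence could lower the count of diverged genes in every library alike. The library labelled LG04 at 2 hours was read from its own table, since the series-wide column of that name repeats the 1 day values (39 of 40 repeated columns held the same values).

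The tests used edgeR 4.0.16 in R 4.3.3: filterByExpr, TMM factors and a quasi-likelihood F test on the counts, with time and animal as terms, 16 libraries, 9 residual degrees of freedom and Benjamini-Hochberg adjustment over 11545 genes at 0.05, and DESeq2 1.42.0 as an alternative. CPM are counts over the TMM-scaled library size. The animal block comes from the labels, since each animal was sampled at every time: the deviations of libraries of the same animal had a median correlation of 0.557, and 23 of 24 pairs were over 0.1. Values by library are given for the 5 genes of each group with the highest mean CPM and for MKI67, TOP2A, CCNB1, CDK1, PCNA, RRM2 and TYMS, and statistics, in each comparison, for the 3 replication and 3 mitosis genes with the smallest p and, in the other lists, the 3 with the smallest p over the 4 times. BUB1, MCM4 and AURKA by library, and genes named for a direction, an interval or a difference between animals, were chosen after their values were seen. The members and lists were chosen with earlier results of these data known. Counts ranged from 1417467 to 8582852 per library, and floors cover counting error only. Overlapping genes were looked up by symbol in RefSeq T2T-MFA8v1.1, where 34 of the 35 genes matched and 9 overlap another gene (TYMS, CCNA2, PLK1, KIF20A, RRM2, MCM2, CCNB1, CENPF and KIF11), whose counts are uncertain.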

Additional observations from a re-analysis of the deposited data

Results flagged for a closer look

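Of 64 sets of 4 libraries (the members named by library, at each time), 2 held a library far from the other 3; chance alone gives about 1 in 20 such sets. PCNA at 30 minutes was 19.98 CPM in LG12, where the other 3 animals had 31.28 to 33.49 CPM. CENPE at 30 minutes was 54.69 CPM in LG04, where the other 3 animals had 20.4 to 26.12 CPM.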

How the results depend on the processing

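In each of 105 comparisons, taken from 15 alternative fits, 0 members were called. Values were refitted only for the members with the smallest p of each group, at each later time against pre-treatment. All 270 of these kept their direction and their side of the threshold, but choosing by p favours a stable direction. NUSAP1 at 1 day over pre-treatment, outside this set, turned from a positive log2 change to -0.07 without the library labelled LG15 at 1 day. The log2 change at 1 day over pre-treatment ranged from 0.89 to 1.44 for BUB1 (adjusted p 0.0708 to 0.833), from 0.60 to 1.48 for BUB1B (0.164 to 0.984) and from -0.84 to -0.43 for MCM4 (0.119 to 0.76) over the 15 alternatives, which include DESeq2.

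The number of all genes called moved more; the cause was not tested. Comparisons run in the order 30 minutes, 2 hours and 1 day against pre-treatment, 2 hours and 1 day against 30 minutes, 1 day against 2 hours, and all times. DESeq2 called 14, 77, 387, 14, 327, 139 and 431. With library size alone 2 genes were called at 2 hours and 46 at 1 day against pre-treatment, 45 at 1 day against 30 minutes and 88 over all times. Without the filter on low counts these were 7, 70, 40 and 87. Without the library labelled LG04 at 1 day, 2 were called at 2 hours against pre-treatment, 1 at 1 day against 30 minutes, 6 at 1 day against 2 hours and 2 over all times. Without that labelled LG15 at 1 day these were 0, 0, 6 and 1, with 13 at 1 day against pre-treatment, and without both 21, 0, 0 and 7, with 48; these 2 settings were chosen after seeing the data. Without the 4 shallowest libraries 0 were called at 1 day in each of its comparisons and 0 over all times. Over all times 25 were called with globin genes left out and 7 with the erythroid score as a covariate, which was chosen after seeing the data. With no replicate block, so that animals were not paired over time, 3 were called at 1 day against pre-treatment, 0 at 1 day against 30 minutes, 0 at 1 day against 2 hours and 2 over all times. Leaving out each animal in turn gave 1 to 67 at 1 day against pre-treatment (1 without LG04, 67 without LG15), 0 to 4 at 1 day against 30 minutes, 0 to 2 at 1 day against 2 hours and 0 to 2 over all times.

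With library size alone, the median log2 change of the replication genes was -0.19 at 30 minutes, -0.33 at 2 hours and -0.38 at 1 day over pre-treatment and -0.15 at 2 hours over 30 minutes, and that of the mitosis genes -0.067 at 2 hours and -0.10 at 1 day over pre-treatment. Without both 1 day libraries of LG04 and LG15 the replication median at 1 day over 30 minutes was 0.11, against -0.21 with all libraries. Leaving out each animal in turn, the replication median at 30 minutes over pre-treatment ranged from -0.14 to 0.0052. With counts of 33 to 133 over 16 libraries, the 9 genes under the filter could not be compared.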
